A study of Mus musculus with 24 samples.

Results

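The livers of PPARα-null mice were compared with those of wild-type mice after both had eaten the PPARα agonist WY-14,643 (WY), so that the same drug was given with and without its receptor. The comparison rests on 6 of the 24 mice of the study, chosen by their titles: the 3 PPARα KO Wyeth mice (mice 19, 20 and 21) and the 3 PPARα WT Wyeth treated mice (mice 7, 8 and 9). Neither group was exposed to heat. All 12422 probe sets of the array that hold values were compared, and none was chosen by how it behaved. All mice were males, 9 to 12 weeks old, on a mixed SV129/C57BL/6 background, fed NIH-07 chow that carried WY at 500 ppm for 1 week, and kept at room temperature in wire rack cages during the time that other mice were heat stressed. The null mice carry the disrupted receptor gene in every cell, so the liver is not the only organ without it. RNA came from pieces of whole liver, 1 mouse to 1 Affymetrix U74Av2 array. The other groups used here are wild-type and PPARα-null mice on control diet without heat (mice 1 to 3 and 13 to 15), and both genotypes on WY followed by 40 minutes at 42 °C (WY+HS, mice 10 to 12 and 22 to 24). These heated mice and their room-temperature partners were killed 4 hours after the stress or after the matching time at room temperature.

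PPARα is a nuclear receptor that binds DNA as a pair with RXR and is switched on by fatty acids and by fibrate-like drugs such as WY. In rodent liver, its activation is known for raising the enzymes that burn fatty acids in peroxisomes, mitochondria and the endoplasmic reticulum, for making peroxisomes multiply, and for lowering many secreted plasma proteins. Without the receptor, WY has few of these effects.

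Intensities were brought to a common distribution over all 24 arrays and values under 15.7 were set to that floor, which marks background. Every fold is a ratio of geometric means on that scale, and a fold against a group with all 3 mice at the floor is written as "at least". Differences are null minus wild-type on the log2 scale. Before normalization, the array medians were 40.5, 26.9 and 37.7 in the wild-type WY mice and 32.4, 21.0 and 22.5 in the null WY mice, within the 15.2 to 40.5 of the whole series. Pairs of arrays of the same group correlated at 0.971 to 0.982 in wild-type and at 0.967 to 0.976 in null WY mice, across probe sets. The variance is pooled over all 8 groups, and values at the floor add none to it, so that a comparison with a floored group can have a p-value that is too small.

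*Ppara* itself, whose gene the null strain carries in disrupted form, gave intensities of 329, 274 and 289.6 in wild-type WY mice and of 103, 167 and 155 in null WY mice. The groups did not overlap, and the null level was 2.14-fold lower (log2 difference -1.10, SE 0.22, limma adjusted p = 0.00224, n = 3 mice per group). Signal above the floor was thus present in null livers. No source used here places this probe set inside or outside the removed part of the gene.

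Under WY, 1618 of the 12422 probe sets (13.0%) differed between the genotypes at a limma adjusted p under 0.05, 826 lower and 792 higher in null mice. At an unadjusted p under 0.05, 2719 probe sets passed. Of those that were lower, 387 differed at least 2-fold, 132 at least 4-fold and 41 at least 10-fold. Of those that were higher, 300 differed at least 2-fold, 59 at least 4-fold and 12 at least 10-fold. All 3 mice of one genotype lay beyond all 3 of the other for 802 of the lower and 773 of the higher probe sets. Counted by gene, with the brightest probe set standing for each of 8251 genes, 661 genes (8.01%) were lower and 603 (7.31%) higher in null livers. The balance of the directions depends on the scaling: on a common median 626 of 1338 calls were higher, but on arrays left unscaled only 132 of 1358 were higher, while the median of all genes moved from 0.00 to -0.18. Directions below are relative to the normalized distribution.

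**Figure D1:**
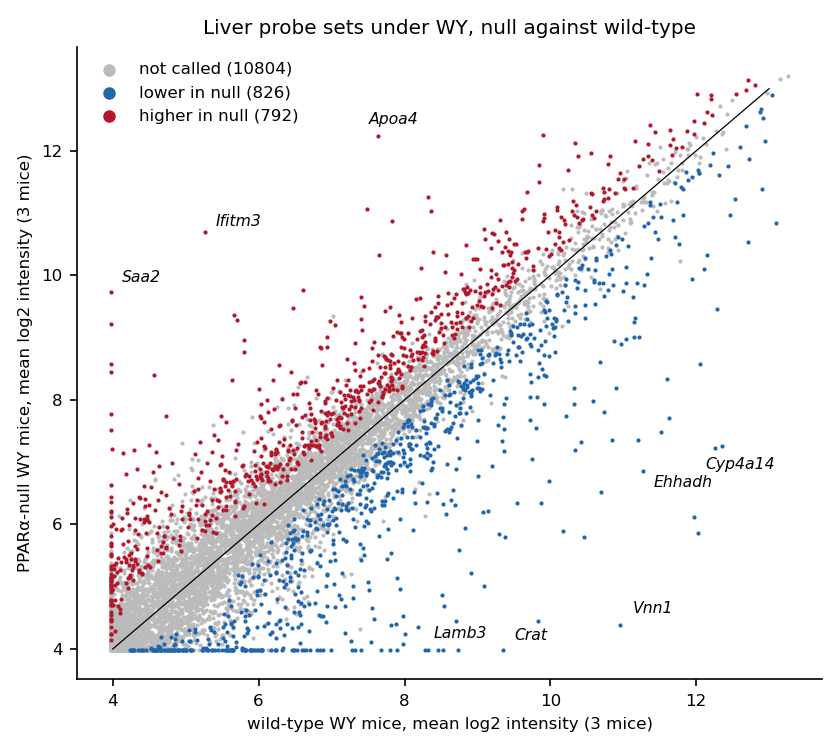
Mean log2 intensity of each of 12422 probe sets in the 3 wild-type WY mice (x axis) and the 3 PPARα-null WY mice (y axis). Blue points (826) were lower and red points (792) higher in null mice at a limma adjusted p under 0.05, grey points (10804) were not called, and the line marks equal levels. The rows of points at the bottom and left edges are probe sets at the floor in all 3 mice of a group.

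*Vnn1*, *Cyp4a10*, *Crat*, *Lpl* and *Cyp4a14* had the largest deficits in null livers among genes with all 3 mice separated. *Vnn1*, which makes pantothenate and cysteamine from pantetheine, read 2199.6, 2068 and 1715 in wild-type mice and, among null mice, 36.1 in mouse 19 and the floor in mice 20 and 21 (95.5-fold lower, log2 difference -6.58, SE 0.36, limma adjusted p = 1.06e-09). *Crat*, the carnitine acetyltransferase, read 668, 652 and 647 in wild-type mice and lay at the floor in all 3 mice of the null group (at least 41.7-fold lower, limma adjusted p = 3.74e-07). No null mouse came near a wild-type mouse for either gene, and a second *Crat* probe set was called in the same direction. The ω-hydroxylases of the Cyp4a family, which oxidize the far end of a fatty acid chain, had the same order. *Cyp4a14* read 5239, 5396 and 5099 in wild-type mice and 329, 241 and 45.8 in null mice (34.1-fold lower, log2 difference -5.09, SE 0.70, limma adjusted p = 7.67e-05). *Cyp4a10* read 4366, 3428 and 4306 against 205 in mouse 19 and 105 in mouse 20 and the floor in mouse 21 (57.6-fold, limma adjusted p = 8.06e-06), from a probe set that may also read related family members. Wild-type levels of both were tight, while null levels were spread, lowest in mouse 21 and highest in mouse 19. Without mouse 21 the deficits were 18.6-fold for *Cyp4a14* and 27.4-fold for *Cyp4a10*, and without mouse 19 that of *Cyp4a10* was 98.7-fold.

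The 15 largest deficits also held genes of other processes. *Me1*, the malic enzyme that supplies NADPH, read 1864, 1420.2 and 1742 in wild-type mice and 81.1, 62.5 and 151 in null mice (18.2-fold, limma adjusted p = 5.37e-08). *Retsat*, a retinol saturase, read 3293, 3194 and 3003 against 199, 178 and 254 (15.2-fold, limma adjusted p = 6.32e-11). *Lamb3*, a chain of basement membrane laminin, read 327, 261 and 352 in wild-type mice and the floor in all 3 mice of the null group (at least 19.7-fold lower). For all of these the groups stood well apart. *Hsdl2*, a dehydrogenase-like protein of peroxisomes, was 19.2-fold lower, and *Rtn4*, a membrane-shaping protein of the endoplasmic reticulum, 16.9-fold lower (limma adjusted p = 2.48e-08 and 8.75e-08). *Slc25a4*, an ADP/ATP carrier of the mitochondrial inner membrane, was 14.9-fold lower (limma adjusted p = 1.26e-04) and *Cox6b2*, an isoform of a cytochrome c oxidase subunit, 19.5-fold lower (limma adjusted p = 1.65e-04, a probe set open to related sequences). A second *Cox6b2* probe set was also called lower, and the first gave 10.0-fold without mouse 20 and 29.9-fold without mouse 21. A further *Cox6b2* probe set near the floor did not pass (log2 difference 0.28, limma adjusted p = 0.825).

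**Figure D2:**
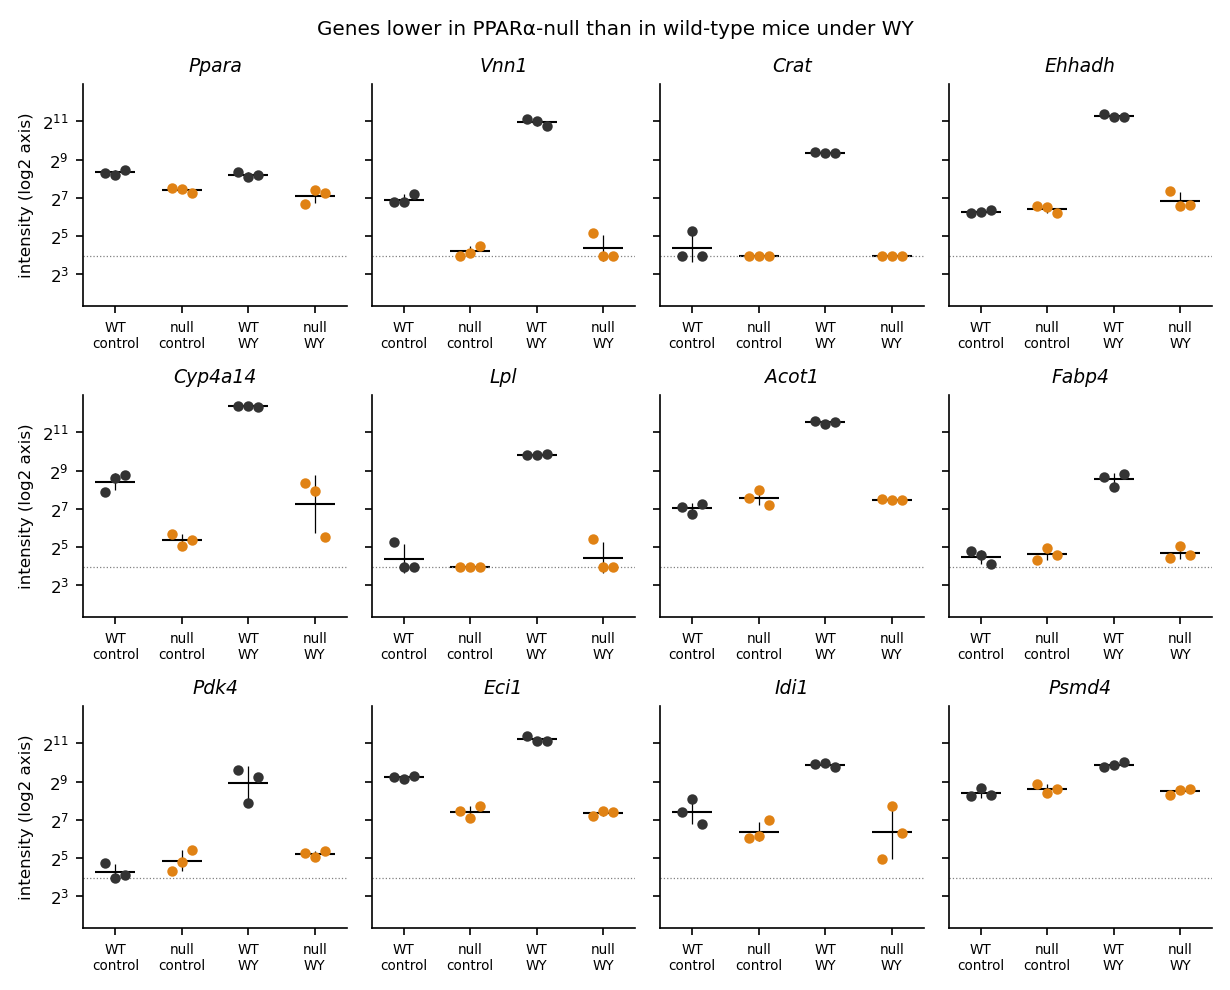
Intensity (log2 axis) of 12 genes in each mouse on control diet and on WY, with wild-type mice in black and PPARα-null mice in orange, 3 mice per group. Horizontal lines are means and vertical lines SDs of the log2 values, and the dotted line is the floor of 15.7. In each panel the 3 wild-type WY mice lie above the 3 null WY mice, and outside *Ppara* the wild-type WY mice stand above all control mice.

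Peroxisomal β-oxidation, which shortens very long and branched acyl chains, was lower in null livers for 10 of 14 measured genes (median log2 difference -2.20, against 0.00 over all genes). *Ehhadh*, the bifunctional enzyme of its middle steps, read 2653, 2381 and 2410.2 in wild-type mice and 163, 96.2 and 100.4 in null mice (21.3-fold lower, log2 difference -4.41, SE 0.18, limma adjusted p = 3.64e-11). *Ech1*, which moves a double bond in unsaturated chains, read 3350.2, 2838 and 3126 against 303, 320.2 and 352 (9.54-fold, limma adjusted p = 3.59e-10). *Amacr*, the racemase for branched chains, read 180.0, 136 and 167 in wild-type mice and the floor in all 3 mice of the null group (at least 10.1-fold, limma adjusted p = 4.11e-04). In all 3 genes the lowest wild-type mouse exceeded the highest null mouse several-fold. Of 11 peroxisome biogenesis genes, 5 were lower and 1 higher in null mice. *Pex11a*, which divides peroxisomes, read 1915, 1824 and 1772 against 155, 143 and 196 (11.3-fold, limma adjusted p = 2.14e-08). The smaller deficits were those of *Pex19*, a chaperone of peroxisomal membrane proteins (2.65-fold), *Lonp2*, a peroxisomal protease (2.23-fold), and *Pex13*, a part of the import machinery (1.90-fold). Of 8 genes of ω-oxidation, 3 were lower, *Aldh3a2*, which oxidizes fatty aldehydes, among them at 4115, 4339 and 4237 against 357, 384 and 411 (11.0-fold, limma adjusted p = 1.07e-06).

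Mitochondrial β-oxidation and ketogenesis genes were lower in null livers for 14 of 17 measured (median log2 difference -1.45). The members named here have the larger deficits of the list. *Slc22a5*, which takes carnitine into the cell, read 227, 180.2 and 171 in wild-type mice and in null mice 26.1 in mouse 19 and 27.0 in mouse 21 and the floor in mouse 20 (8.57-fold, limma adjusted p = 6.82e-07). *Slc25a20*, which exchanges acylcarnitine for carnitine across the inner membrane, read 1386, 1446 and 1281 against 182, 144 and 159 (8.51-fold, limma adjusted p = 1.53e-09). *Acadl*, an acyl-CoA dehydrogenase of long chains, read 759, 739.8 and 746 against 96.5, 65.1 and 85.9 (9.19-fold, limma adjusted p = 2.26e-08). The groups were separated in each. *Eci1*, which isomerizes double bonds of unsaturated acyl-CoA, had the largest deficit of the list, at 2626, 2247 and 2207 against 145, 176 and 171 (14.4-fold lower, log2 difference -3.85, SE 0.15, limma adjusted p = 2.72e-11). *Pdk4*, a kinase that shuts off pyruvate dehydrogenase and so spares glucose, read 771, 239 and 612 in wild-type mice and 38.0, 33.6 and 40.8 in null mice (12.9-fold, limma adjusted p = 3.13e-05). The wild-type mice differed more among themselves here, with mouse 8 far under the other pair, but still above every null mouse.

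Of 21 genes for uptake, binding, lipolysis and lipid droplets, 13 were lower in null livers (median log2 difference -1.44), and of 13 acyl-CoA synthetases and thioesterases, 7 were lower and 1 higher. *Lpl*, the lipase that frees fatty acids from lipoproteins, read 895, 909 and 925 in wild-type mice and in null mice 42.6 in mouse 19 and the floor in mice 20 and 21 (41.5-fold lower, log2 difference -5.37, SE 0.54, limma adjusted p = 2.34e-06), and a second probe set for it was called in the same direction. *Fabp3*, a fatty acid binding protein of heart and muscle, read 272, 164 and 305 in wild-type mice and the floor in all 3 mice of the null group (at least 15.2-fold, limma adjusted p = 2.86e-06). *Fabp4*, the binding protein of fat cells, read 412, 282 and 448 against 22.0, 33.4 and 23.7 (14.4-fold, limma adjusted p = 1.33e-07). The *Fabp4* groups did not overlap, and *Cidea*, a lipid droplet protein, was 7.67-fold lower in null mice (limma adjusted p = 0.00168). Among the enzymes that attach or remove coenzyme A, *Acot1*, a thioesterase, read 3057, 2779 and 2989 against 186, 174 and 177 (16.4-fold lower, log2 difference -4.04, SE 0.17, limma adjusted p = 4.55e-11). *Acsl5*, an acyl-CoA synthetase, was 4.21-fold lower, *Slc27a1*, a transporter with synthetase activity, 3.99-fold lower and its relative *Slc27a4* 2.97-fold lower (limma adjusted p = 3.53e-07, 0.00178 and 1.89e-04).

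Genes that build lipids were also lower in null livers: 9 of 20 for fatty acid and triglyceride synthesis, with 1 higher, and 10 of 17 for cholesterol synthesis and uptake (median log2 differences -0.78 and -1.52). With only the compared arrays in the fit, 6 of the cholesterol genes were lower. *Idi1*, which isomerizes isopentenyl diphosphate, read 961, 992 and 874 in wild-type mice and 31.0, 213 and 80.9 in null mice (11.6-fold, limma adjusted p = 9.31e-04), which was 7.16-fold without mouse 19 and 18.8-fold without mouse 20. *Hmgcs1*, which makes HMG-CoA in the cytosol, read 617, 509 and 573 against 51.6, 97.3 and 81.6 (7.60-fold, limma adjusted p = 1.24e-05). Null mouse 20 had the highest null level of both genes and also of *Fdps*, which makes farnesyl diphosphate, and of *Cyp51*, a demethylase of lanosterol, which were 7.62-fold and 6.78-fold lower in null mice (limma adjusted p = 3.87e-04 and 0.00222). Without mouse 20 *Cyp51* was 10.5-fold lower. Of fatty acid synthesis, *Fasn*, the synthase, read 669, 577 and 747 against 148, 111 and 184 (4.58-fold, limma adjusted p = 0.00605). *Elovl5*, an elongase of polyunsaturated chains, was 4.01-fold lower (limma adjusted p = 6.20e-07). The wild-type mice were the higher group in each of these genes. *Thrsp*, a nuclear protein linked to lipogenesis, went the other way, at 169.8, 115 and 249.7 in wild-type mice and 470.3, 929 and 1189 in null mice (4.74-fold higher, limma adjusted p = 0.00214). Of 19 genes of apolipoproteins and lipoprotein assembly, 4 were lower and 4 higher (2 and 1 on unscaled arrays). *Pltp*, which transfers phospholipid between lipoproteins, was 11.9-fold lower (limma adjusted p = 1.03e-06), *Mttp*, which loads lipid onto apolipoprotein B, 2.85-fold lower (limma adjusted p = 0.00739), and *Apom*, a carrier of sphingosine 1-phosphate, 2.37-fold higher (limma adjusted p = 5.58e-06).

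The element to which PPARα and RXR bind together is a direct repeat of the half-site AGGTCA with 1 base between the copies. It was searched in RefSeq promoters of build GRCm38.p6, from 250 bases before to 50 after each gene start, on both strands and with at most 2 mismatches over both copies. Promoters were matched for 6572 of the 8251 genes. The repeat was found in a promoter of 28 of 538 genes lower in null mice (5.20%) and of 27 of 488 genes higher in null mice (5.53%). Among all 6572 genes it was found for 257 (3.91%). With at most 1 mismatch the shares were 0.558%, 0.820% and 0.487%. These are descriptions of letters in a short window, and more distant elements were not searched. The stretches around the match are shown for the lower genes *Fabp1* (1 mismatch), *Slc25a20* and *Aldh9a1* (2 mismatches each) and for the higher gene *Itih4* (2 mismatches), with the repeat in capitals and 30 bases on each side, 5′ to 3′ on the strand of the gene:
Fabp1: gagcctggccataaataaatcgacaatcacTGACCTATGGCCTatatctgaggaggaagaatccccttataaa
Slc25a20: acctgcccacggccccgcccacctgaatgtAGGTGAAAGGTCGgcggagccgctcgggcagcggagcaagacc
Aldh9a1: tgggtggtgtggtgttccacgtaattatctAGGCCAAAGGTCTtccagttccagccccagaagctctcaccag
Itih4: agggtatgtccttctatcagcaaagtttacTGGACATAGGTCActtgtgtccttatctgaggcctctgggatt
They lie at chr6:71199782-71199854, plus strand, chr9:108662112-108662184, plus strand, chr1:167349817-167349889, plus strand and chr14:30886331-30886403, plus strand. In *Fabp1* the repeat begins 67 bases before the gene start and is read on the opposite strand. In *Slc25a20* it begins 6 bases after the start, and in *Aldh9a1* and *Itih4* 144 and 115 bases before it. *Fabp1*, the fatty acid binding protein of liver, read 7557, 5459 and 7557 in wild-type mice and 3545, 4034 and 3703 in null mice (1.81-fold, limma adjusted p = 5.88e-05). Another *Fabp1* probe set, near the floor, had the opposite sign but did not pass (log2 difference 0.83, limma adjusted p = 0.157). *Aldh9a1*, an aldehyde dehydrogenase, was 2.46-fold lower (limma adjusted p = 2.66e-05, a probe set open to related sequences).

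Energy metabolism and protein breakdown had smaller but frequent deficits in null livers. Of 59 oxidative phosphorylation genes, 26 were lower and 1 higher in null mice (median log2 difference -0.27). The count lower depended on the setting, at 41 on unscaled arrays, 17 on a common median and 15 or 16 with only the compared arrays (normalized alone or with all). *Cycs*, the electron carrier cytochrome c, read 419, 342 and 374 in wild-type mice and 216, 148 and 189 in null mice (2.07-fold, limma adjusted p = 1.98e-05). *Ndufa8* of complex I was 2.01-fold lower, and *Ndufa1* of the same complex was the 1 higher gene, at 22.6 in mouse 7 and the floor in mice 8 and 9 against 49.9, 46.2 and 38.7 (2.52-fold higher, limma adjusted p = 0.0188). Of 25 genes of the TCA cycle and pyruvate dehydrogenase, 9 were lower, among them *Suclg1*, a succinyl-CoA ligase subunit, at 1235, 1148 and 1251 against 645, 562 and 648 (1.96-fold, limma adjusted p = 1.79e-08), *Dlst* (1.86-fold) and *Mdh2* (1.86-fold), both enzymes of the cycle. The *Cycs* and *Suclg1* groups did not overlap. Of 39 proteasome genes, 23 were lower and 2 higher (median log2 difference -0.51). *Psmd4*, a ubiquitin receptor of the regulatory particle, read 869.5, 923 and 1044 against 319, 375 and 388 (2.62-fold, limma adjusted p = 1.18e-05), and *Psmd12* and *Psmd14* of the same particle were 2.51-fold and 2.24-fold lower. *Psmb8*, a catalytic subunit of the immunoproteasome, had the opposite order, at 44.9, 33.6 and 45.5 in wild-type mice and 159.5, 142 and 129 in null mice (3.49-fold higher, limma adjusted p = 1.24e-05). Of 27 antioxidant and NRF2-linked genes, 9 were lower and 2 higher, with *Gsr*, glutathione reductase, at 363, 336 and 317 against 190.5, 180.3 and 205 (1.76-fold, limma adjusted p = 1.06e-06) and *Pgd*, an NADPH-making enzyme of the pentose phosphate pathway, 4.36-fold lower (limma adjusted p = 0.00203).

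**Figure D3:**
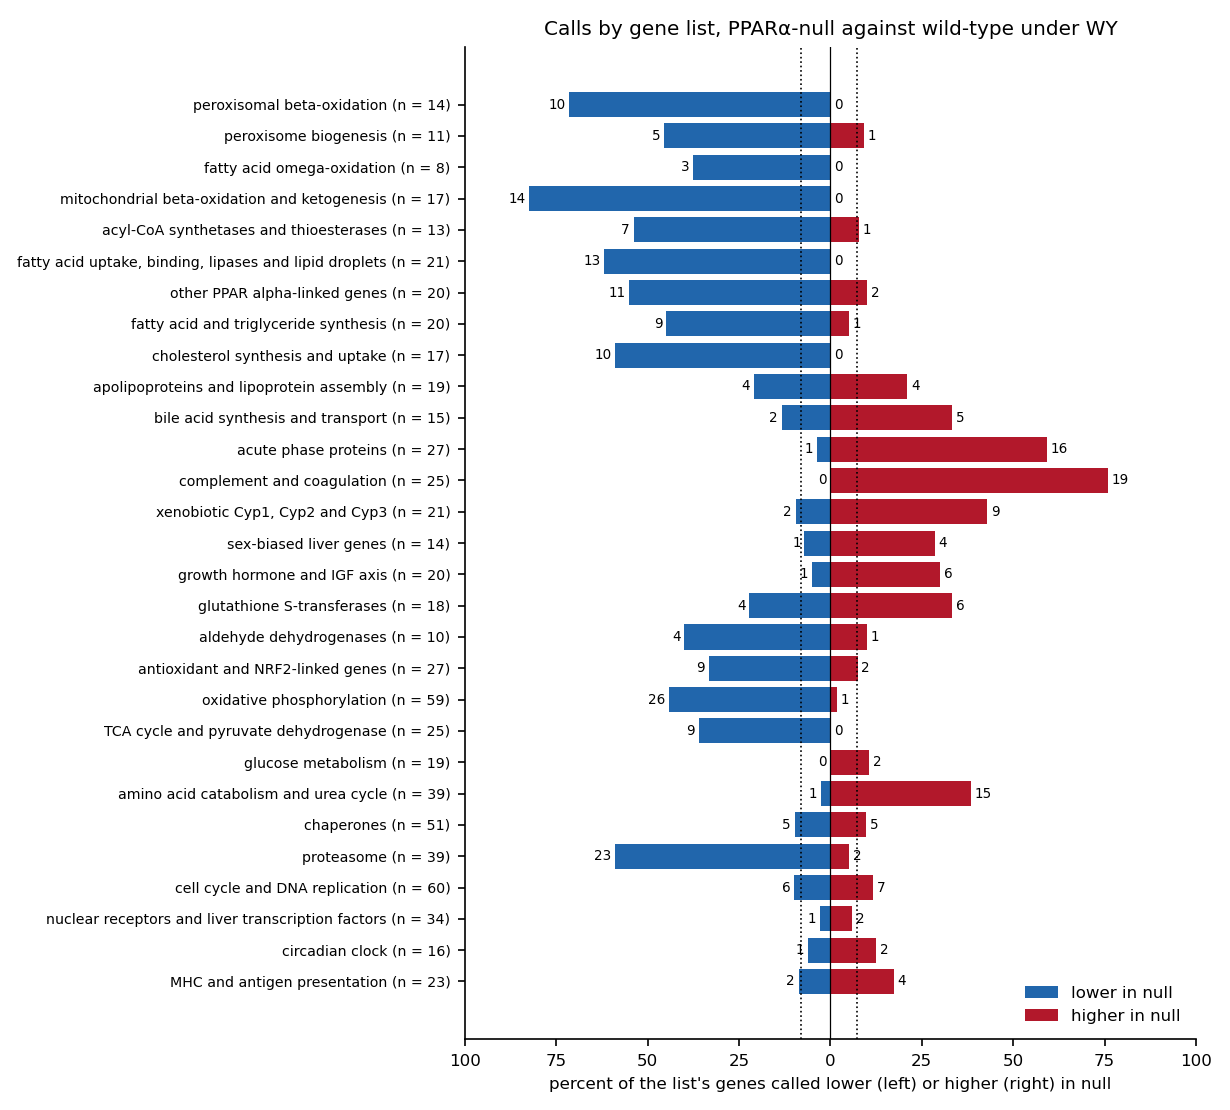
Percent of the measured genes of each of 29 lists called lower (blue, left) or higher (red, right) in PPARα-null than in wild-type mice under WY, with the number of genes at the end of each bar and the list size in parentheses. Dotted lines mark the shares among all 8251 genes, 8.01% lower and 7.31% higher. The mitochondrial (14 of 17 genes) and peroxisomal (10 of 14) β-oxidation lists reach furthest left, and complement and coagulation furthest right (19 of 25).

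The 15 largest excesses in null livers included *Apoa4*, *Ifitm3* and *Hsd3b5*. *Apoa4*, an apolipoprotein of chylomicrons and HDL, read 174, 252 and 177 in wild-type mice and 4405, 4775 and 5318 in null mice (24.3-fold higher, log2 difference 4.60, SE 0.23, limma adjusted p = 3.75e-10). *Ifitm3*, an antiviral membrane protein, read 58.3 in mouse 7 and 62.3 in mouse 8 and the floor in mouse 9 in wild-type mice and 2076, 1446 and 1526 in null mice (43.1-fold higher, log2 difference 5.43, SE 0.47, limma adjusted p = 3.53e-07). *Hsd3b5*, a steroid dehydrogenase of male mouse liver, lay at the floor in all 3 mice of the wild-type group and read 429, 831 and 594 in null mice (at least 37.8-fold, limma adjusted p = 9.46e-04). The separation was complete for these genes. *Egfr*, the EGF receptor, read 77.4, 83.6 and 22.1 against 676, 618 and 577 (11.9-fold, limma adjusted p = 4.91e-05, with both further probe sets called in the same direction). *Hsd11b1*, which regenerates active glucocorticoid, read 224, 286 and 185 against 1767, 1915 and 1949 (8.23-fold, limma adjusted p = 2.14e-08). *Lifr*, the receptor for leukemia inhibitory factor, read 82.9, 104 and 108 against 602, 1262 and 856 (8.87-fold, limma adjusted p = 2.74e-04), and 2 of its 4 other probe sets were called in the same direction. A further *Lifr* probe set above the floor had the opposite sign but did not pass (log2 difference -0.56, limma adjusted p = 0.544). Without wild-type mouse 9 *Ifitm3* was 27.6-fold and *Egfr* 7.73-fold higher. *Nnmt*, which methylates nicotinamide, *Tspan4*, a tetraspanin, *Sdc4*, a heparan sulfate proteoglycan, *Col9a1*, a collagen chain, and *Hsd3b2*, a steroid dehydrogenase, were higher in null mice by at least 24.3-fold, 14.2-fold, 9.35-fold, at least 11.6-fold and 7.79-fold. *Nnmt* read 909, 181 and 339 in null mice and lay at the floor in all 3 mice of the wild-type group, and was at least 15.7-fold higher without mouse 19. *Tspan4* was 21.4-fold higher without wild-type mouse 7.

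**Figure D4:**
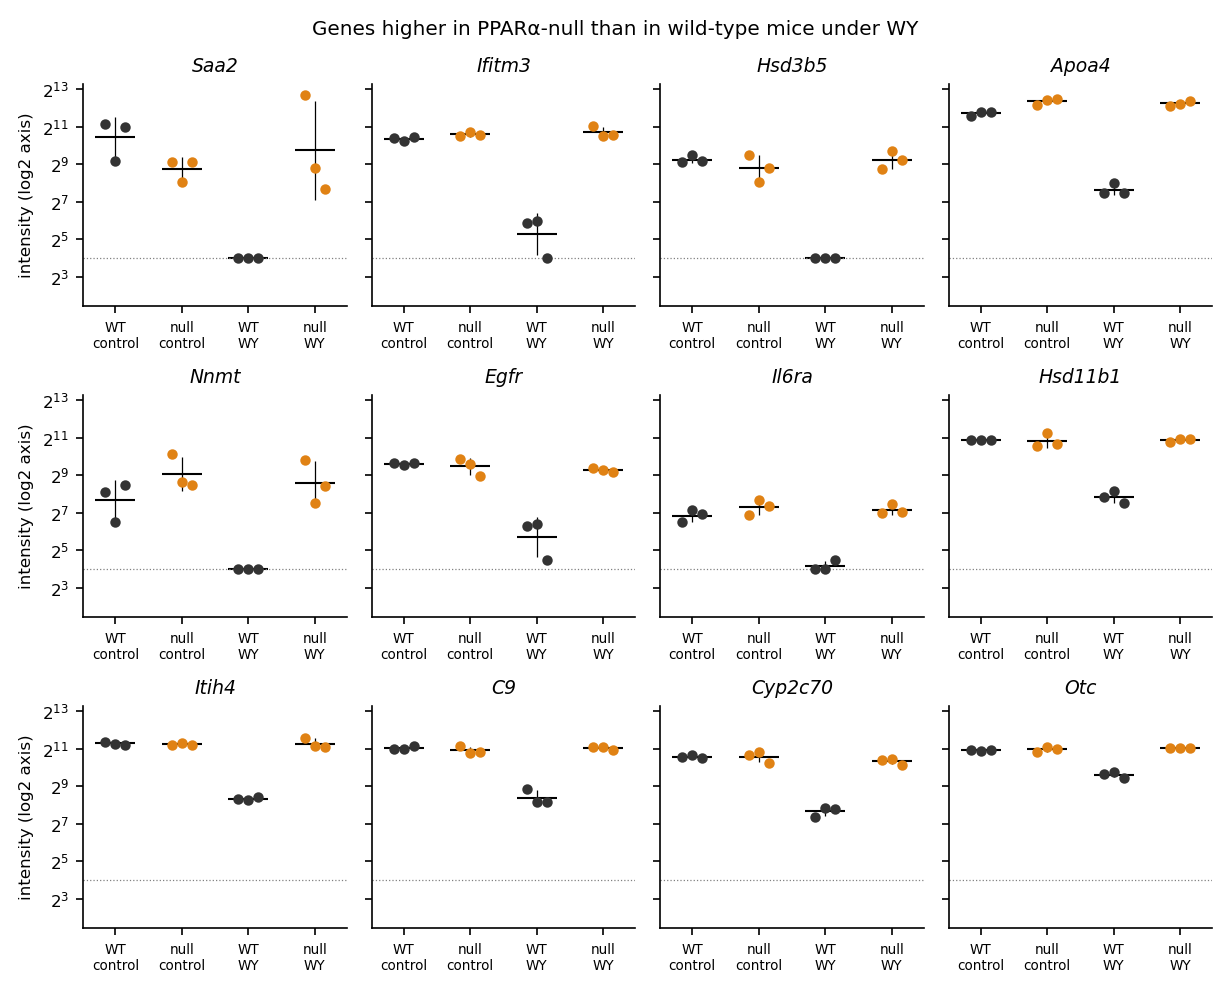
Intensity (log2 axis) of 12 genes in each mouse on control diet and on WY, with wild-type mice in black and PPARα-null mice in orange, 3 mice per group. Horizontal lines are means and vertical lines SDs of the log2 values, and the dotted line is the floor of 15.7. The 3 wild-type WY mice are the lowest in each panel, and null WY mouse 19 stands above its group in *Saa2*.

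Of 27 acute phase genes, 16 were higher and 1 lower in null livers (median log2 difference 0.69), and of 25 complement and coagulation genes, 19 were higher (median 0.76). On unscaled arrays 5 and 3 were higher. *Saa2*, a serum amyloid A, lay at the floor in all 3 mice of the wild-type group and read 6678, 448 and 204 in null mice (at least 53.9-fold higher, limma adjusted p = 0.00248, from a probe set that may also read related genes). *Orm2*, an orosomucoid, lay at the floor in all 3 mice of the wild-type group and read 1636, 100.2 and 64.0 in null mice (at least 13.9-fold higher, limma adjusted p = 0.0298). Null mouse 19 stood far above mice 20 and 21 for both genes. Without mouse 21, *Saa2* was at least 109.9-fold and *Orm2* at least 25.7-fold higher. Without mouse 19, *Saa2* was at least 19.2-fold higher (limma adjusted p = 0.0121) and *Orm2* at least 5.09-fold, which did not pass (adjusted p = 0.157, and the *Orm2* call was also lost without any 1 of the wild-type mice), while 14 acute phase and 18 complement and coagulation genes were higher. *Il6ra*, the interleukin 6 receptor, read 21.9 in mouse 9 and the floor in mice 7 and 8 in wild-type mice and 125, 178 and 129.6 in null mice (8.10-fold, limma adjusted p = 5.20e-07), and *Itih4*, a plasma protein of the inter-α-inhibitor family, 314, 300.5 and 344 against 3057, 2237 and 2135 (7.66-fold higher, log2 difference 2.94, SE 0.13, limma adjusted p = 6.32e-11). Mouse 19 was the highest null mouse for *Itih4* but the lowest for *Il6ra*. Of complement, *C9*, the pore-forming component, read 456, 279 and 281 against 2135, 2179 and 1957 (6.33-fold, limma adjusted p = 1.12e-05). *C2* and *Hc*, which encode components C2 and C5, were 3.25-fold and 3.16-fold higher, and *C4bp*, an inhibitor, 2.50-fold higher (limma adjusted p = 2.66e-10, 3.59e-10 and 2.06e-08). The complement groups did not overlap. Another *C2* probe set, near the floor, had the opposite sign but did not pass (log2 difference -0.34, limma adjusted p = 0.901).

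Of 39 genes of amino acid catabolism and the urea cycle, 15 were higher and 1 lower in null livers (median log2 difference 0.35, 4 higher on unscaled arrays). *Otc*, a urea cycle enzyme of mitochondria, read 799, 846 and 702 in wild-type mice and 2119, 2109.8 and 2096 in null mice (2.70-fold, limma adjusted p = 1.09e-08). *Asl*, the urea cycle lyase, read 244, 329 and 339 against 1112, 979.7 and 1266 (3.70-fold, limma adjusted p = 1.38e-05). In both genes every wild-type mouse lay under every null mouse. *Sardh*, which demethylates sarcosine, and *Hal*, which starts histidine breakdown, were 2.77-fold and 2.45-fold higher. Of 21 xenobiotic Cyp genes, 9 were higher and 2 lower, with 3 higher and 1 lower on unscaled arrays or with only the compared arrays. *Cyp2c70*, which makes muricholic acids in mice, read 165, 232 and 215 against 1362, 1383 and 1126 (6.37-fold, limma adjusted p = 1.72e-08), and *Cyp1a2*, a caffeine-metabolizing enzyme, 819.6, 1023 and 923 against 2970.2, 3808 and 3755 (3.80-fold, limma adjusted p = 1.15e-06). *Cyp2c39* had the opposite order, 5.54-fold lower in null mice (limma adjusted p = 0.00688). Of 15 bile acid genes, 5 were higher and 2 lower, but 1 was higher and 3 lower on unscaled arrays and 1 each with only the compared arrays. Those that passed included *Cyp7b1*, an oxysterol hydroxylase, 2.71-fold higher (limma adjusted p = 5.69e-04), *Slc10a1*, the bile acid uptake carrier, 1.85-fold higher (limma adjusted p = 0.0084) and *Abcb4*, the phospholipid exporter into bile, 2.11-fold lower (limma adjusted p = 3.12e-04). Another *Slc10a1* probe set above the floor had the same sign but did not pass (log2 difference 0.74, limma adjusted p = 0.161). Of 18 glutathione S-transferases, 6 were higher and 4 lower (4 and 4 on unscaled arrays). *Gsta2* read 120.3, 113 and 148 against 778, 443 and 686 (4.89-fold, limma adjusted p = 9.54e-04) and *Gstm2* 77.9, 63.9 and 78.2 against 398, 281 and 290.0 (4.37-fold, limma adjusted p = 5.44e-05), while *Mgst3*, a membrane-bound member, was 3.53-fold lower (limma adjusted p = 0.00337). Another *Gstm2* probe set had the opposite sign but did not pass (log2 difference -0.24, limma adjusted p = 0.935).

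Of 20 genes of the growth hormone and IGF axis, 6 were higher and 1 lower (2 and 1 on unscaled arrays), and of 14 sex-biased liver genes, 4 were higher and 1 lower (3 and 1). *Igfals*, which holds IGF in a circulating complex, read 153, 76.0 and 121 in wild-type mice and 261, 326 and 236 in null mice (2.43-fold, limma adjusted p = 0.0126), and *Ghr*, the growth hormone receptor, 369, 331 and 356 against 710.0, 796 and 765 (2.15-fold, limma adjusted p = 0.0137, a probe set open to related sequences). Another *Ghr* probe set did not pass (log2 difference 0.56, limma adjusted p = 0.233). *Hao2*, a hydroxyacid oxidase, was the 1 lower sex-biased gene, at 157, 137 and 225 in wild-type mice and the floor in all 3 mice of the null group (at least 10.7-fold, limma adjusted p = 1.68e-05). *Hsd3b5* is described above and *Cyp2d9*, a male-biased enzyme, was 1.97-fold higher (limma adjusted p = 0.0166).

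The shares of called genes are set here beside those of all genes (8.01% lower, 7.31% higher). Lower and higher shares were 9.80% and 9.80% for chaperones, 10.0% and 11.7% for cell cycle genes, and 8.70% and 17.4% for antigen presentation. They were 6.25% and 12.5% for circadian genes, 2.94% and 5.88% for nuclear receptors, and 0% and 10.5% for glucose metabolism. Most lay near those of all genes, and the genes named are single members. Of 51 genes listed as chaperones and their regulators, 5 were lower and 5 higher (6 and 0 on unscaled arrays, and 3 lower without mouse 7, 9 or 21). *Hspa5*, the Hsp70 of the endoplasmic reticulum, was at 593, 454 and 537 in wild-type mice and 1180.0, 1411 and 797 in null mice (2.09-fold, limma adjusted p = 0.00496), *Xbp1*, a transcription factor of the unfolded protein response, 2.55-fold higher, and *Ppib*, a prolyl isomerase, 1.88-fold higher (limma adjusted p = 0.00121 and 3.22e-08). *Grpel2*, a mitochondrial co-chaperone, was 2.43-fold lower (limma adjusted p = 0.00392). Of 60 cell cycle genes, 6 were lower and 7 higher (9 and 1 on unscaled arrays). Without mouse 21, 3 were lower and 2 higher, and without mouse 7, 8, 9 or 20, 3 or 4 were higher. *Ccng2*, an atypical cyclin, was 8.79-fold lower (limma adjusted p = 3.11e-04) and *Btg2*, which restrains proliferation, 5.11-fold lower (limma adjusted p = 0.0101), which did not pass without mouse 21 (adjusted p = 0.0538). *Cdkn1a*, the inhibitor p21, was at 85.6, 116 and 82.0 in wild-type mice and in null mice 34.3 in mouse 20 and the floor in mice 19 and 21 (4.57-fold, limma adjusted p = 0.0229), a call that held only without mouse 20 among the 6 omissions of 1 mouse, and its other probe set did not pass (log2 difference -1.30, adjusted p = 0.110). Of 23 genes of MHC and antigen presentation, 4 were higher (1 on unscaled arrays, and 1 or 2 without any 1 of mice 7, 8, 9, 19 and 21) and 2 lower, with *Tap1*, the peptide transporter, 1.68-fold higher and *H2-Q10*, a secreted class I protein of liver, 1.45-fold lower (limma adjusted p = 0.0412 and 7.44e-06). Of 16 circadian genes, 2 were higher (0 on unscaled arrays) and 1 lower, with *Tef*, a PAR bZIP factor, at 86.8, 99.9 and 180.0 against 349.6, 514 and 523 (3.92-fold, limma adjusted p = 0.00378). Of 34 nuclear receptors and liver transcription factors, *Nr5a2* and *Nr2f6* were higher (1.43-fold and 1.33-fold) and *Ppara* lower, but *Nr2f6* did not keep its direction on unscaled arrays. Of 19 glucose metabolism genes 2 were higher, *Slc37a4*, the glucose 6-phosphate carrier, at 182, 235 and 261 against 559, 789.7 and 842 (3.22-fold, limma adjusted p = 3.67e-04), and *Ugp2* (2.01-fold).

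The levels on control diet place these differences. Among the 661 genes lower in null mice under WY, 218 (33.0%) had a wild-type WY mean at least 2-fold above the wild-type control mean. The share over all genes was 3.66%. Their null WY mean was at least 2-fold below the null control mean for 9 (1.36%, against 0.448% of all genes). Among the 603 genes higher in null mice, 166 (27.5%) had a wild-type WY mean at least 2-fold below the wild-type control mean. The share over all genes was 3.70%. Their null WY mean was at least 2-fold above the null control mean for 4 (0.663%, against 0.606% of all genes). These shares use the same WY mice as the calls and are a description. On control diet *Ehhadh* read 74.9, 75.3 and 81.9 in wild-type mice and 94.6, 93.3 and 73.1 in null mice, near the null WY level. *Apoa4* read 3021, 3521 and 3457 and 4579, 5396 and 5709 on control diet, and *Itih4* 2653, 2420.3 and 2369 and 2369, 2469.9 and 2335, again near the null WY mice. For these genes the wild-type WY group was the one that stood apart.

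On control diet, in other mice, 105 probe sets (0.845%) differed between the genotypes, 65 lower and 40 higher in null mice (1249 at an unadjusted p under 0.05). Of these 105, 70 (66.7%) were called in the same direction under WY, and they made up 4.33% of the WY calls. *Vnn1* read 109, 108 and 149 in wild-type control mice and 17.6 in mouse 14 and 22.7 in mouse 15 and the floor in mouse 13 in null control mice (log2 difference -2.71, limma adjusted p = 8.06e-04). *Eci1* read 610.3, 559.6 and 627 against 177, 136 and 212 on control diet (-1.80, adjusted p = 5.73e-06). The deficits of both were larger under WY, at -6.58 and -3.85. Mitochondrial β-oxidation had 8 of 17 genes and peroxisomal β-oxidation 6 of 14 genes lower on control diet, against 14 and 10 under WY. Over all 8251 genes, 51 were lower on control diet and 661 under WY. In 5 genes, picked out for this pattern, the genotypes differed in opposite directions on the diets: *Acsl4*, *Cstb*, *Mrpl51* and *Ppa2* were lower in null mice under WY and higher on control diet, and *Cfl1* the reverse, with WY folds from 1.24 to 1.72.

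The difference of the differences, tested as a diet by genotype interaction, passed for 637 probe sets (5.13%), 365 with a more negative and 272 with a more positive null minus wild-type difference under WY. It uses the mice of both diets. For *Ehhadh* it was -4.57 (SE 0.26, limma adjusted p = 1.24e-08), for *Acot1* -4.58 (adjusted p = 5.55e-09) and for *Apoa4* 3.96 (adjusted p = 9.63e-07). For *Cyp4a10*, *Cyp4a14* and *Cox6b2* it did not pass (adjusted p = 0.572, 0.367 and 0.108), nor for *Ppara* (-0.17, SE 0.31, adjusted p = 1). *Cyp4a10* was already lower in null mice on control diet, at 348, 364 and 474 in wild-type mice and in null mice 28.9 in mouse 13 and the floor in mice 14 and 15. The floor limits the size of this difference and of the *Cyp4a10* interaction. An interaction that did not pass does not show that the response to WY was equal in both genotypes.

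After WY+HS, in a further 6 mice, 1459 probe sets (11.7%) differed between the genotypes, and 974 probe sets were called in the same direction as under WY alone, 60.2% of the WY calls and 66.8% of the WY+HS calls. Over the 1618 probe sets called under WY, the 2 sets of differences correlated at r = 0.927 with WY+HS and r = 0.497 with control diet, across probe sets that are not independent replicates. After WY+HS *Ehhadh* read 2298, 2359 and 2587 in wild-type mice and 76.0, 77.8 and 88.0 in null mice. *Vnn1* read 1721, 1372 and 1614 in wild-type mice and in null mice 33.4 in mouse 23 and the floor in mice 22 and 24. *Itih4* read 354, 334 and 316 against 2448, 2626 and 2207. These levels lay near those of the unheated WY mice in each genotype. Over all 8251 genes, 532 were lower in null mice after WY+HS and 661 under WY. In cholesterol synthesis, 2 of 17 genes were lower in null mice after WY+HS against 10 under WY (median log2 differences -0.73 and -1.52). The summed intensity of the list was 4148, 6452 and 2454 in wild-type WY+HS mice 10, 11 and 12, of which mouse 11 lay within the range of the unheated wild-type WY mice (6013 to 6462). *Idi1* did not pass after WY+HS (log2 difference -1.43, adjusted p = 0.194). The difference between these counts was not tested.

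**Figure D5:**
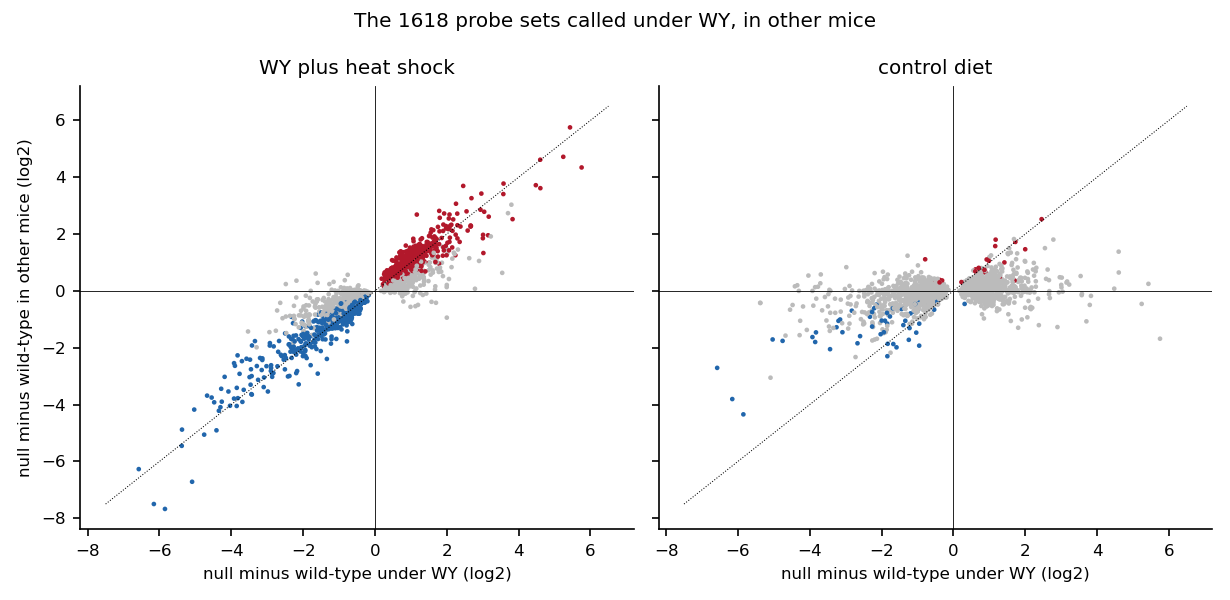
Null minus wild-type log2 difference of the 1618 probe sets called under WY (x axis) against the same difference in other mice (y axis), after WY plus heat shock on the left and on control diet on the right. Blue and red points were also called lower or higher in the other mice, grey points were not, and the dotted line marks equal differences. The WY+HS values follow the direction of the line (974 called in the same direction) but were smaller at the median. Lower probe sets had a median of -0.68 after WY+HS against -0.95 under WY, and higher ones 0.68 against 0.85. The probe sets were chosen by their WY difference. Most control diet values lie near 0 (70 called in the same direction).

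The heat shock by genotype interaction among WY-fed mice, which shares the 6 unheated mice, passed for 13 probe sets (0.105%). *Atf3*, a stress-induced transcription factor, was lower in null than in wild-type mice after WY+HS by a log2 difference of -3.75 and under WY alone by -0.04 (adjusted p = 1.40e-06 and 1), with an interaction of -3.71 (SE 0.51, limma adjusted p = 0.00281). A second *Atf3* probe set gave an interaction of -3.25 (limma adjusted p = 2.68e-05). Its difference under WY alone was 0, as when both groups lie at the floor, where a p-value can be too small. *Dnajb1*, a co-chaperone of Hsp70, had an interaction of -3.28 (SE 0.56, adjusted p = 0.0300), with 46.7, 45.5 and 62.2 in wild-type mice and 43.5, 27.6 and 42.1 in null mice on WY alone. The 2 groups on WY alone did not overlap for *Dnajb1*, but lay close to each other and did not pass the test (limma adjusted p = 0.667).

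Markers of liver cell types were read beside these results. In bulk RNA, fewer cells of a type and less RNA per cell cannot be told apart. Hepatocyte markers, 10 measured, summed to 42945 to 44983 in wild-type and 42402 to 43533 in null WY mice, with 3 lower (*Fabp1* among them) and 3 higher in null mice (*Ttr*, *Ahsg* and *Cps1*, by 2.37-fold, 1.43-fold and 1.27-fold). On unscaled arrays 1 of them was lower and 0 higher, and without mouse 19 only 1 was lower. Kupffer cell and macrophage markers, 12 measured, summed to 683 to 974 in wild-type and 997 to 2195 in null WY mice, and 1 of them passed, *Clec4f* at 148, 39.3 and 133 against 369, 183 and 298 (2.96-fold, limma adjusted p = 0.0245). The *Clec4f* call was lost without mouse 8 (1.94-fold, adjusted p = 0.127), 19 (0.0986) or 21 (0.0800). The macrophage sums did not overlap, but wild-type mouse 7 (974) and null mouse 20 (997) lay close together. The highest sum, 2195, was that of null mouse 19, with 1326 in mouse 21. Endothelial markers, 8 measured, summed to 507 to 578 and 674 to 863, and their largest differences, in *Eng* and *Tie1*, did not pass (log2 differences 0.62 and 0.48, limma adjusted p = 0.0538 and 0.352). Stellate cell markers, 10 measured, summed to 1353 to 1504 and 1523 to 2138, with *Dcn* 1.55-fold higher in null mice (limma adjusted p = 0.0074). Lymphocyte markers, 11 measured with 4 at the floor in all WY mice, summed to 923 to 1174 and 1137 to 1421, with *Cd79a* 3.64-fold higher (limma adjusted p = 0.0129). The neutrophil markers overlapped, at 253 to 351 and 256 to 299. The part of these cells in the higher acute phase, complement and antigen presentation genes was not tested. Adipocyte markers, 5 measured, summed to 1450.0 to 1552 in wild-type and 257 to 342 in null WY mice, and *Lpl* and *Fabp4*, described above, were the 2 that passed. These 2 genes made up most of the wild-type sums, and the median log2 difference of the adipocyte list was -0.007. The sums of 3 erythroid markers overlapped, at 1603 to 2432 in wild-type and 1740 to 2343 in null WY mice. Among these markers *Alas2*, which starts heme synthesis, was 4.20-fold higher in null mice (limma adjusted p = 0.03). The *Alas2* call was lost without any 1 of the WY mice (limma adjusted p from 0.0681 to 0.0832). Of 2 pancreatic acinar markers *Cela1*, an elastase, was 4.46-fold higher in null mice (limma adjusted p = 1.14e-04).

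Other probe sets of the same genes were a further reading within the same mice. Called genes had 467 other probe sets, of which 319 were above the floor in a WY mouse and 235 of these (73.7%) had the same sign. Of 95 that were called themselves, 85 had the same direction and 10 the opposite one, in 9 genes. *Srxn1*, a reductase of overoxidized peroxiredoxins, was the gene among them named by the rule, at 148, 161 and 143 in wild-type mice and 276, 343 and 349.9 in null mice from its brightest probe set (2.14-fold, limma adjusted p = 0.00183), and its direction is therefore uncertain.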

How the data were processed

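The authors read biotin-labelled liver RNA on U74Av2 arrays with Affymetrix GeneChip Operating Software and analysed them in Rosetta Resolver. The deposited values were treated as linear probe set intensities with background subtracted, which rests on their range (many at or below 0), since no source states it. No source used here gives how probes were summarized or scaled. Of 12488 probe sets, 66 controls hold no value. A single gene symbol was found for 10833 of the other 12422, several for 396 and none for 1193.

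Intensities were quantile normalized over 24 arrays and floored at 15.7 (the size of the 10th percentile, which is -15.7), where 42.9% of values lie. Values at the top of the scale are set by rank and can be equal in several mice. A linear model with 1 mean per group was fitted with limma 3.58.1 (R 4.3.3, 16 residual and 0.39 prior degrees of freedom), with Benjamini-Hochberg adjustment over 12422 probe sets at 0.05. The fit was tested on simulated data. The labels do not say whether litters or cages were shared. The p-values set a difference against the spread between mice within the 8 groups, heated groups included.

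Members and lists were chosen with earlier results of these data known. Genes named are *Ppara*, the 15 largest differences in each direction with all 3 mice separated, and up to 4 passing members of each list (the largest 2 where none passed). The alternatives were other scalings, floors, filters, moderation, a fold and a stricter p threshold, the methods' F test with Scheffe's test, the compared arrays alone, gene means, and leaving out each mouse. *Srxn1* and 8 other genes have probe sets called in opposite directions.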

Additional observations from a re-analysis of the deposited data

Results flagged for a closer look

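For 24 of the 30 genes with the largest genotype differences under WY, the difference itself differed between WY and control diet. The test was the diet by genotype interaction of limma at an adjusted p under 0.05. Its means come from 12 mice, 6 of which also entered the WY comparison, and its variance from all 24 mice. The 30 genes were chosen by the WY difference, which is a term of the interaction, so their count is a description. Values are the null minus wild-type log2 difference under WY less that on control diet. They were negative for *Crat* (-4.96), *Lpl* (-4.95), *Acot1* (-4.58), *Ehhadh* (-4.57), *Lamb3* (-4.30), *Fabp3* (-3.92), *Vnn1* (-3.87), *Me1* (-3.64), *Slc25a4* (-3.38), *Hsdl2* (-3.21), *Rtn4* (-2.71) and *Retsat* (-2.30). They were positive for *Saa2* (7.44), *Hsd3b5* (5.70), *Ifitm3* (5.18), *Tspan4* (4.01), *Apoa4* (3.96), *Egfr* (3.72), *Hsd11b1* (3.07), *Col9a1* (3.02), *Itih4* (2.99), *Lifr* (2.86), *Il6ra* (2.55) and *Hsd3b2* (2.48). Where a group lies at the floor, the size of these values is limited by it. Over all probe sets the genotype difference depended on the diet for 637 (5.13%), and among WY-fed mice it depended on heat shock for 13 (0.105%).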

How the results depend on the processing

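The genotype count under WY (1618) was 1338 on a common median and 1358 on unscaled arrays, where the share of higher calls was 9.72%, and within 1.5 times of the main count except for the methods' test (855) and an adjusted p under 0.01 (967). The control diet count (105) was less stable: 65 on a common median, 17 on unscaled arrays, 24 with only the compared arrays normalized and fitted, 14 with these arrays fitted alone, 57 on an asinh scale without a floor, 183 with array weights and 39 at an adjusted p under 0.01. The WY+HS count (1459) fell to 452 on unscaled arrays, 730.0 and 728 with the compared arrays alone (normalized alone or with all), 791 with the methods' test and 853 at 0.01. The diet interaction (637) gave 265 on unscaled arrays, 1056 with array weights, 398 with the methods' test and 356 at 0.01, and the heat interaction (13) 25, 31, 29 and 8 under the same settings, 20 with a floor at the 5th percentile and 6 on the asinh scale.

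Leaving out each mouse in turn gave 1206 to 1413 calls under WY, 51 to 87 on control diet, 1063 to 1313 after WY+HS, 500.0 to 644 for the diet interaction and 8 to 27 for the heat interaction. The control diet count moved most without wild-type control mice 2 (53) and 3 (51) and null control mouse 13 (58), and the heat interaction without wild-type WY+HS mice 10 (27) and 12 (26), null WY mouse 21 (8) and null WY+HS mouse 22 (8). Of 135 named genes, 17 no longer passed without at least 1 of the 6 WY mice: *Alas2*, *Psmd12*, *Irf7*, *Tap1*, *Ndufa1*, *Btg2*, *Clec4f*, *Cox5a*, *Cd79a*, *Bhlhe40*, *Igfals*, *Clock*, *Orm2*, *Cdkn1a*, *Aldh1a7*, *Ndufa8* and *Cyp2d9*. On unscaled arrays 27 no longer passed, *Ttr*, *Apom*, *C4bp*, *Hspa5*, *Xbp1*, *Slc10a1*, *Ghr* and *Tef* among them.

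Of the named genes' differences under WY, only *Nr2f6* changed sign, on unscaled arrays (log2 difference -0.12). Counted over named genes and alternatives, 2338 kept direction and side of the threshold, 220 no longer passed and 5 newly passed. With at most 1 mismatch the promoter shares were 0.558% for lower, 0.820% for higher and 0.487% for all genes. No paired analysis was possible because the 24 mice carry 24 different numbers, 1 array each. Dim genes are limited by signal over background: 2996 probe sets lay at the floor on all arrays, where no difference could be measured, and 3 mice per group limit the precision of the rest.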
